A study of Homo sapiens with 6 samples.

Results

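The genes described here are 10 genes of the response to low oxygen, chosen by name from the known pathway. They are the hypoxia-inducible factor subunit genes HIF1A and EPAS1, the angiogenic growth factor gene VEGFA, and 7 genes known as targets of these factors: ADM, EGLN3, ANKRD37, CA9, PFKFB4, BNIP3 and NDRG1. They make up 10 of 58233 genes and 131 of 199234 transcripts in the expression tables. RNA was sequenced from cells labelled Huh7, a human hepatocellular carcinoma line. In 3 libraries the cells had been transfected with a plasmid that overexpresses TP53TG1, a long noncoding RNA gene, and in 3 with an empty control plasmid. All 6 libraries thus come from transfected cells of 1 line. The labels give no oxygen level, no time after transfection and no measure of how many cells took up the plasmid. The study's title places TP53TG1 in the control of PRDX4 and beta-catenin in this cancer, and the comparison here asks whether hypoxia-pathway RNA differed between the 2 plasmids.

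Cells sense oxygen through prolyl hydroxylases, among them the product of EGLN3, which mark the alpha subunits HIF-1 alpha (HIF1A) and HIF-2 alpha (EPAS1) for destruction by the VHL ubiquitin ligase. When oxygen is scarce the alpha subunits persist, pair with ARNT and bind a short DNA core in target genes, so their activity is set largely at the protein level and not by their own RNA. Targets raise glucose breakdown (PFKFB4), export acid (CA9), remove mitochondria (BNIP3) and call in blood vessels (VEGFA). In liver cancer, which is rich in vessels, VEGFA is a known therapeutic target.

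The factors bind a core of ACGTG or GCGTG. Promoter sequences, 250 bases before to 50 after each start in RefSeq (GRCh38.p14), were at hand for 8 of the 10 genes. Both cores were searched on both strands. ACGTG, which is CACGT when read from the opposite strand, was present for 3 genes. GCGTG, which is CACGC when read from the opposite strand, was present for 5. The run CACGTG holds ACGTG on both strands, so it counts as 2 overlapping matches. Of 35116 RefSeq promoters of this length, 21.4% held ACGTG, 36.5% GCGTG and 48.5% one or the other. The 250 bases before the start of the 3 genes with ACGTG are shown 5′ to 3′ because they carry the core of the pathway, with each ACGTG or GCGTG on either strand in capitals. A match describes these letters and does not show that a factor binds there. The regions are chr9:35673678-35673927 on the plus strand for CA9, chr4:185396591-185396840 on the plus strand for ANKRD37 and chr10:131981924-131982173 on the minus strand for BNIP3.
CA9: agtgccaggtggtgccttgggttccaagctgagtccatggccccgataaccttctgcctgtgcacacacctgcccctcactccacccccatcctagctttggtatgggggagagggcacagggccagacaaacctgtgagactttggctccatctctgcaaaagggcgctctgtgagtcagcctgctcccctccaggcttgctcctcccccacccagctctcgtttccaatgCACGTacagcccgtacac
ANKRD37: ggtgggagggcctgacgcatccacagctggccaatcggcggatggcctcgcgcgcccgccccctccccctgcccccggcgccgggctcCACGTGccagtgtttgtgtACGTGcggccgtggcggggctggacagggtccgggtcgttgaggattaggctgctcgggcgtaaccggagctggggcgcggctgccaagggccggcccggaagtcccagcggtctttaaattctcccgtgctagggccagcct
BNIP3: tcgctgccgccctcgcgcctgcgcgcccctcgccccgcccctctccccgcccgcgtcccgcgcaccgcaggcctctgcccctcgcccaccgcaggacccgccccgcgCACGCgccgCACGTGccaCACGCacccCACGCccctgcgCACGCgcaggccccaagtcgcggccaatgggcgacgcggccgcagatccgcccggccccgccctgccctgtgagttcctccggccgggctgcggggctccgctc
CA9 held a single ACGTG match close to its start. ANKRD37 held 3 matches, a pair of them from 1 CACGTG run, and no GCGTG. BNIP3 held 2 ACGTG matches from 1 CACGTG run, flanked by 4 GCGTG matches. HIF1A, EPAS1, ADM and PFKFB4 held 1 GCGTG match each and no ACGTG, HIF1A in the first of its 2 listed promoters. EGLN3 held neither.

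VEGFA RNA is spliced into forms that differ in exons 6 and 7. These exons encode the basic stretch that lets the secreted protein bind heparan sulfate around the cell, and forms without both diffuse freely. Exon 5 is shown with them because it comes just before the choice. The sequences are from GENCODE release 29 (GRCh38, plus strand), at chr6:43778889-43778918, chr6:43780732-43780803 and chr6:43781956-43782087.
VEGFA exon 5: accaaagaaagatagagcaagacaagaaaa
VEGFA exon 6: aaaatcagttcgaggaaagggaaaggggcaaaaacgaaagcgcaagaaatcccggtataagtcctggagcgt
VEGFA exon 7: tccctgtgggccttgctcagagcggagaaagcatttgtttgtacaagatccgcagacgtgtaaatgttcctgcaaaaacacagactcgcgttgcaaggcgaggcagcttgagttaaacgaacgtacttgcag
Exon 6 is 72 bases long and exon 7 is 132 bases long, both in this numbering along the transcript VEGFA-222.

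Values are taken as FPKM, that is fragments divided by transcript length in kilobases and by the library's depth, summed over the transcripts of a gene. A fold change is on the log2(FPKM + 1) scale, TP53TG1 minus control. The transfected gene checked the labels: TP53TG1 was at 10.6, 5.25 and 6.15 FPKM in controls 1 to 3 and at 69.8, 134 and 70.5 FPKM with its plasmid, with no overlap. The libraries summed to between 599081 and 890541 FPKM. If the unit is FPKM, the size of the smallest values gave an estimate of fragments per library that ran from 15400000 to 19100000. The median over all 12853 genes tested was a log2 fold change of -0.35 on unscaled values. Median-of-ratios scaling, which sets the typical gene equal between libraries, brought it to -0.02. Both libraries numbered 1 stood apart in mean transcript length, weighted by FPKM over all transcripts of protein-coding genes. It was 1290 and 1212 nt there, against 1594 to 1644 nt in the other 4. The labels do not say whether replicates were separate cultures, so p-values measure the spread between these libraries, which may be technical. Hepatocyte secretory RNA was low, with ALB at 0.53 to 1.22 FPKM, while the liver factor gene HNF4A was at 2.57 to 15.0 FPKM. Of 9 endothelial markers ERG and CLDN5 were at 0 in every library and CDH5 reached 0.03 FPKM. The 9 together summed to 37.7 to 52.8 FPKM in controls and 31.8 to 48.8 FPKM with TP53TG1, of which ESAM gave 27.3 to 45.9. The 6 fibroblast markers summed to 19.1 to 21.5 FPKM in controls and 22.6 to 32.5 FPKM with TP53TG1, and the part of such RNA in the results was not tested.

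No gene of the 10 differed between TP53TG1 and control beyond the spread of the replicates. In the limma fit over all genes with Benjamini-Hochberg adjustment, 0 of 10 passed the 0.05 threshold, where 1 of 12853 genes (0.00778%) did. At an unadjusted p under 0.05 it was again 0 of 10, against 302 genes (2.35%). The median log2 fold change of the 10 was -0.15 unscaled and 0.22 with median-of-ratios scaling, and in both 9 of 10 lay above the median of all tested genes. VEGFA was the exception. That count was 4 of 10 with no filter on low genes, 6 of 10 without control replicate 2 or without TP53TG1 replicate 1, and 6 of 9 with sums over protein-coding transcripts, scaled or not. Without control replicate 1 the median of the 10 was 0.03. In bulk RNA, fewer cells of a kind and less RNA per cell cannot be told apart.

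**Figure D1:**
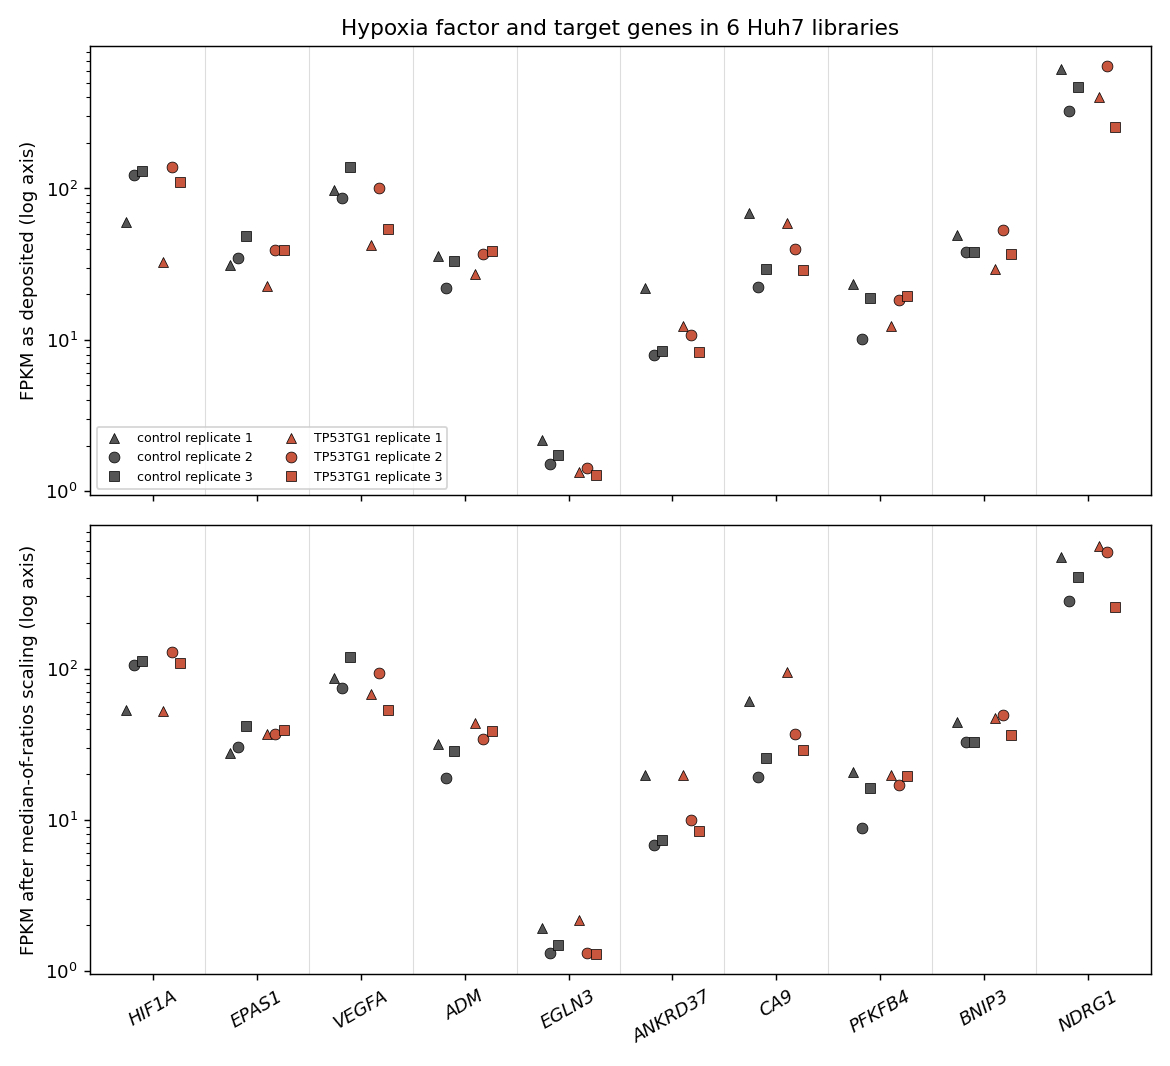
FPKM of the 10 genes in each of the 6 libraries on log axes, as deposited (top) and after median-of-ratios scaling (bottom); grey points are control, red points TP53TG1, and triangles, circles and squares are replicates 1, 2 and 3. After scaling, both triangles of CA9 and ANKRD37 lie above the other 4 points and both of HIF1A lie below them, in either group.

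The 2 factor subunit genes did not separate the groups. HIF1A (chromosome 14, 61695513 to 61748259, plus strand, GRCh38) was at 60.3, 122 and 130 FPKM in controls 1 to 3 and at 32.7, 138 and 110 FPKM with TP53TG1. The low values were those of the libraries numbered 1 in both groups, and the groups overlapped. The means were 104 ± 38.1 and 93.6 ± 54.7 FPKM (SD, n = 3 each). The log2 fold change of HIF1A was -0.31 (SE 0.539, 95% interval -1.53 to 0.92, adjusted p = 0.777 by limma). It turned to 0.08 with median-of-ratios scaling. After scaling, HIF1A was at 53.5 and 52.6 FPKM in both number 1 libraries, and the other 4 ran from 105 to 128 FPKM. Both libraries numbered 1 lay below the others for 31.5% of tested genes.

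EPAS1 (chromosome 2, 46293667 to 46386703, plus strand), the alpha subunit gene best known from vessels and kidney, was at 31.0, 35.0 and 48.6 FPKM in controls 1 to 3. With TP53TG1 it was at 22.9, 39.5 and 39.2 FPKM, where replicate 1 lay below every control and replicates 2 and 3 lay inside their range. EPAS1 had a log2 fold change of -0.19 (SE 0.330, adjusted p = 0.779 by limma), and 0.20 with median-of-ratios scaling. Both genes lay above their partner ARNT in every library. ARNT averaged 8.56 ± 3.03 FPKM in controls and 6.08 ± 3.93 FPKM with TP53TG1, and HIF3A did not exceed 0.10 FPKM in any library.

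VEGFA (chromosome 6, 43770184 to 43786487, plus strand), the main growth factor for blood vessels, had the lowest fold change of the 10. It was at 97.7, 86.3 and 138 FPKM in controls 1 to 3 and at 42.4, 101 and 53.6 FPKM with TP53TG1. TP53TG1 replicates 1 and 3 lay below every control, and replicate 2 lay above 2 of the 3 controls. The means were 107 ± 27.1 FPKM in controls and 65.7 ± 31.2 FPKM with TP53TG1 (SD, n = 3 each), a ratio of 0.613. The log2 fold change of VEGFA was -0.77 (SE 0.366, 95% interval -1.60 to 0.06), with an adjusted p of 0.748 by limma, and the groups overlapped. With median-of-ratios scaling it was -0.38 (95% interval -1.06 to 0.30), as the median of all genes moved too.

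Between libraries of the same number, a pairing that the labels do not state and the data do not settle for numbers 2 and 3, VEGFA did not go one way. TP53TG1 libraries stood at 0.434, 1.173 and 0.389 times their control in pairs 1, 2 and 3, and at 0.788, 1.268 and 0.450 after scaling. Fitted with a replicate block and no scaling, VEGFA had a limma adjusted p of 0.292 (unadjusted 0.0133). In that fit 1240 of 12853 tested genes were lower and 139 higher at an unadjusted p under 0.05. Limma's prior degrees of freedom were infinite there, so the variance of VEGFA came from the trend over all genes and not from its own pairs. With block and scaling together the limma adjusted p of VEGFA was 0.89. With block and scaling 0 of the 10 genes passed, against 0.0545% of tested genes. Leaving out TP53TG1 replicate 2, the library with the high value, gave a log2 fold change of -1.12 with an adjusted p of 0.588. Over all alternatives the adjusted p of VEGFA ran from 0.292 to 1, and its fold change stayed negative in each.

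An antisense gene overlaps exon sequence of VEGFA. AL136131.3, of 188 nt, was listed at 0 in controls 1 and 2 and at 63.5 FPKM in control 3, and at 0, 167 and 57.6 FPKM in TP53TG1 replicates 1 to 3. Whether counting used strand is not given in the sources used here, so reads from VEGFA and from AL136131.3 cannot be told apart here.

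Of 32 annotated VEGFA transcripts 12 had a value above 0, and 4 held at least 5% of the gene's FPKM on average. VEGFA-205, which encodes the form with exon 7 and without exon 6, held 31.0%, 36.6% and 35.4% in controls 1 to 3 and 29.1%, 40.9% and 36.1% with TP53TG1. The groups overlapped, at 34.4 ± 2.97% and 35.4 ± 5.97% (SD, n = 3 each; exact two-sided permutation p = 0.9, where 0.1 is the smallest that 3 against 3 allow). VEGFA-206, which lacks exons 6 and 7, held 29.8%, 22.1% and 24.8% in controls and 45.3%, 23.5% and 22.4% with TP53TG1 (exact p = 0.8). VEGFA-206 was higher in both number 1 libraries, at 29.8% and 45.3%, than in the other 4, and VEGFA-205 was lower in both.

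The other 2 are transcripts that keep an intron and encode no protein. VEGFA-214, of 551 nt, held 11.7%, 14.6% and 15.4% in controls and 2.24%, 10.1% and 15.8% with TP53TG1 (exact permutation p = 0.4). VEGFA-215, of 2746 nt, held 22.4%, 9.70% and 8.69% in controls and 18.8%, 10.2% and 8.04% with TP53TG1 (exact permutation p = 0.7). The shares of VEGFA-215 were higher in both libraries numbered 1 than in the other 4. The 6 retained-intron transcripts above 0 together held 36.3 ± 0.36% in controls and 30.9 ± 6.73% with TP53TG1 (SD, n = 3 each; exact permutation p = 0.4).

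Grouped by exon, protein-coding VEGFA RNA gave no difference beyond the replicate spread. Forms with exon 7 and without exon 6 made up 56.3 ± 6.10% in controls and 52.6 ± 12.5% with TP53TG1 (SD, n = 3 each; exact permutation p = 0.8). Forms without both exons made up 40.1 ± 6.13% and 43.2 ± 14.3% (exact permutation p = 0.9). Forms with both exons, whose protein is held most firmly at the cell surface, made up 3.58 ± 0.62% and 4.21 ± 2.18% (exact permutation p = 0.7). The order of the 3 classes, exon 7 alone first and both exons last, was the same in 5 of 6 libraries, and in TP53TG1 replicate 1 the form without both exons came first at 59.8%. Over all transcripts placed in these classes, noncoding ones included, the order held in 4 of 6 libraries, and the form without both exons came first in both libraries numbered 1, at 53.4% in the control.

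**Figure D2:**
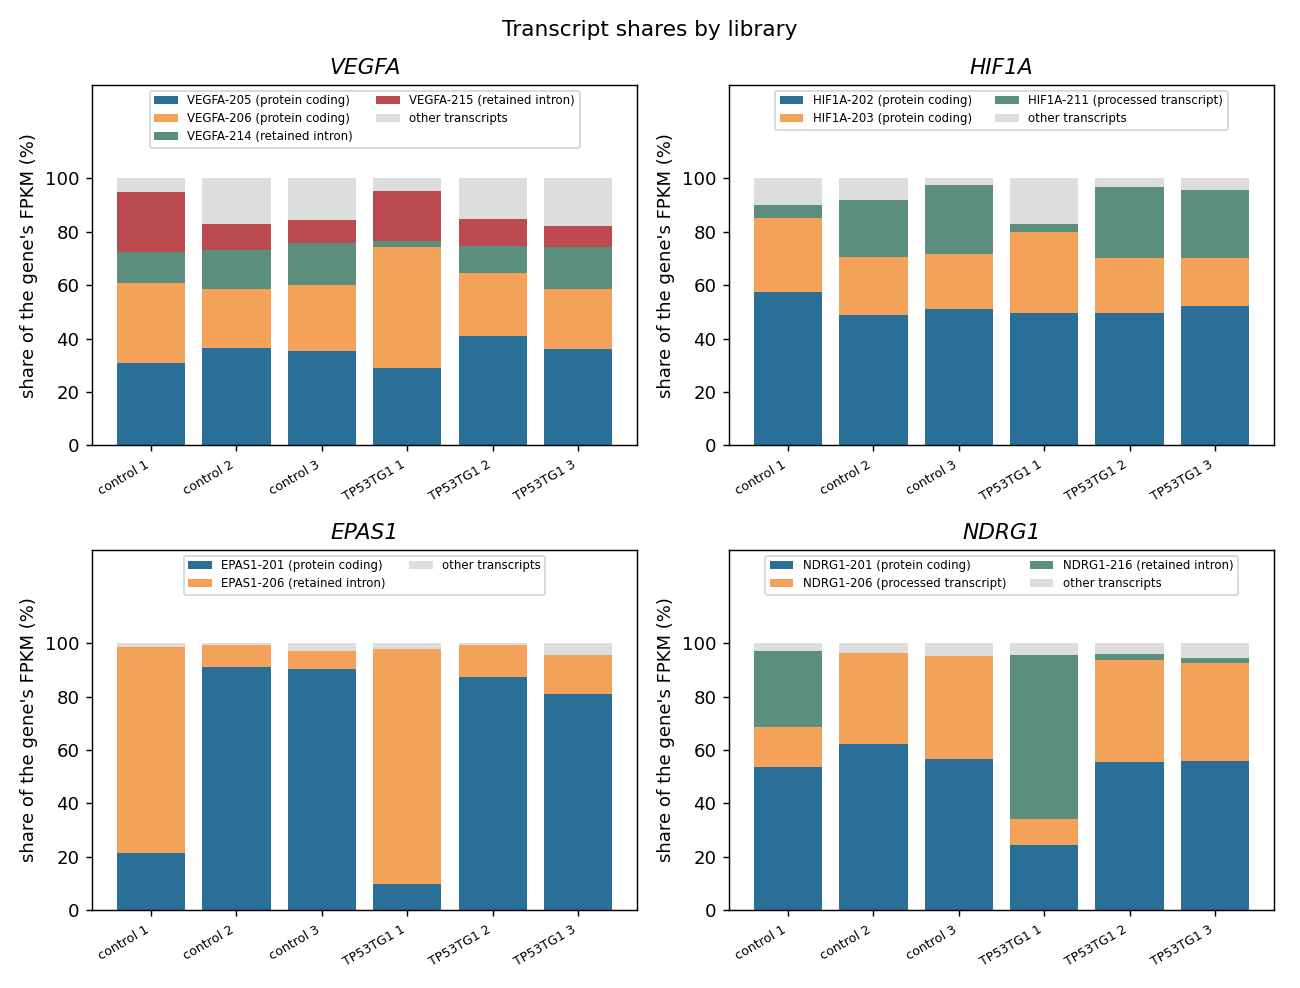
Share of each gene's FPKM, in percent, held by its transcripts with a mean share of at least 5% in the 6 libraries, for VEGFA, HIF1A, EPAS1 and NDRG1; grey is all other transcripts. The bars for control 1 and TP53TG1 1 differ from the other 4, most in EPAS1, where EPAS1-206 holds 77.0% and 87.9% there and 6.73% to 14.3% elsewhere.

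ADM encodes adrenomedullin, a peptide that widens vessels (chromosome 11, 10304680 to 10307397, plus strand). It was at 35.9, 21.9 and 33.1 FPKM in controls 1 to 3 and at 27.1, 37.0 and 38.7 FPKM with TP53TG1. Unscaled the groups overlapped, with a log2 fold change of 0.19 (SE 0.311, adjusted p = 0.772 by limma). After median-of-ratios scaling ADM was at 31.9, 18.8 and 28.5 FPKM in controls and at 43.7, 34.3 and 38.6 FPKM with TP53TG1. On that scale all 3 TP53TG1 libraries lay above all 3 controls, which held for 2.01% of tested genes, and the log2 fold change was 0.57 (95% interval -0.03 to 1.17, adjusted p = 1 by limma). ADM was the 1 gene of the 10 whose groups did not overlap after scaling. With block and scaling together the unadjusted p of ADM was 0.0102 and its limma adjusted p 0.787.

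EGLN3, the HIF prolyl hydroxylase gene that is itself induced by hypoxia (chromosome 14, 33924231 to 34462774, minus strand), was the lowest of the 10. It was at 2.17, 1.52 and 1.73 FPKM in controls 1 to 3 and at 1.34, 1.42 and 1.29 FPKM with TP53TG1. The groups did not overlap, which for lower values held for 13.3% of tested genes, and they did overlap after scaling. No gene of the 10 lay higher in all 3 TP53TG1 libraries on the unscaled values, as 0.428% of tested genes did. The log2 fold change of EGLN3 was -0.25 (SE 0.296, adjusted p = 0.748 by limma) and close to 0 after scaling. Its protein-coding transcripts held only 8.6% to 30.4% of its FPKM, and the short noncoding transcript EGLN3-207 held up to 75.1%. ANKRD37 encodes a small ankyrin repeat protein (chromosome 4, 185396021 to 185400628, plus strand). It was at 22.2, 7.89 and 8.46 FPKM in controls 1 to 3 and at 12.3, 10.7 and 8.36 FPKM with TP53TG1, highest in the libraries numbered 1. ANKRD37 had a log2 fold change of -0.14 (SE 0.433, adjusted p = 0.859 by limma), and 0.23 after scaling. ANKRD37 overlaps UFSP2 on the other strand over 909 nt.

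CA9 encodes carbonic anhydrase IX, an enzyme on the outer cell surface used as a tissue marker of hypoxia (chromosome 9, 35673856 to 35681159, plus strand). It was at 68.8, 22.2 and 29.5 FPKM in controls 1 to 3 and at 59.0, 39.7 and 29.1 FPKM with TP53TG1. The 2 highest values were those of the libraries numbered 1, and the groups overlapped. The log2 fold change of CA9 was 0.19 (SE 0.451, adjusted p = 0.819 by limma), and 0.58 after scaling (95% interval -0.73 to 1.88). After scaling, the mean of the libraries numbered 1 was 2.83 times that of the others, the widest such gap among the 10 genes. Scaled CA9 was higher with TP53TG1 in each pair, with ratios of 1.55, 1.93 and 1.14. With block and scaling its unadjusted p was 0.0179 and its limma adjusted p 0.848. In that fit 2 of the 10 genes, CA9 and ADM, had an unadjusted p under 0.05. So did 384 genes with higher and 293 with lower values, of 12853 tested. CA9 overlaps ARHGEF39 on the other strand over 643 nt.

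PFKFB4 encodes an enzyme that makes and breaks down a sugar bisphosphate that switches on glycolysis (chromosome 3, 48517684 to 48562015, minus strand). It was at 23.4, 10.2 and 18.9 FPKM in controls 1 to 3 and at 12.3, 18.4 and 19.5 FPKM with TP53TG1. The groups overlapped, with a log2 fold change of -0.01 (SE 0.382, adjusted p = 0.985 by limma), and 0.36 after scaling. BNIP3, a mitophagy receptor gene (chromosome 10, 131966455 to 131982013, minus strand), was at 49.6, 38.1 and 38.1 FPKM in controls and at 29.3, 53.0 and 36.7 FPKM with TP53TG1. TP53TG1 libraries were both the lowest and the highest of the 6. The log2 fold change of BNIP3 was -0.11 (SE 0.309, adjusted p = 0.844 by limma), and 0.27 after scaling.

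NDRG1, a stress gene known to be induced by hypoxia (chromosome 8, 133237171 to 133302022, minus strand), was the most abundant of the 10. It was at 619.8, 327 and 466 FPKM in controls 1 to 3 and at 403, 641 and 256 FPKM with TP53TG1. The groups overlapped, at 471 ± 147 and 433 ± 194 FPKM (SD, n = 3 each). The log2 fold change of NDRG1 was -0.17 (SE 0.376, adjusted p = 0.808 by limma), and 0.22 after scaling. With TP53TG1 it stood at 0.650, 1.96 and 0.549 times the control of the same number. In pair 3 the scaled ratios of VEGFA and NDRG1, at 0.450 and 0.636, were the lowest of the 10 genes, and in pair 2 both were above 1.

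**Figure D3:**
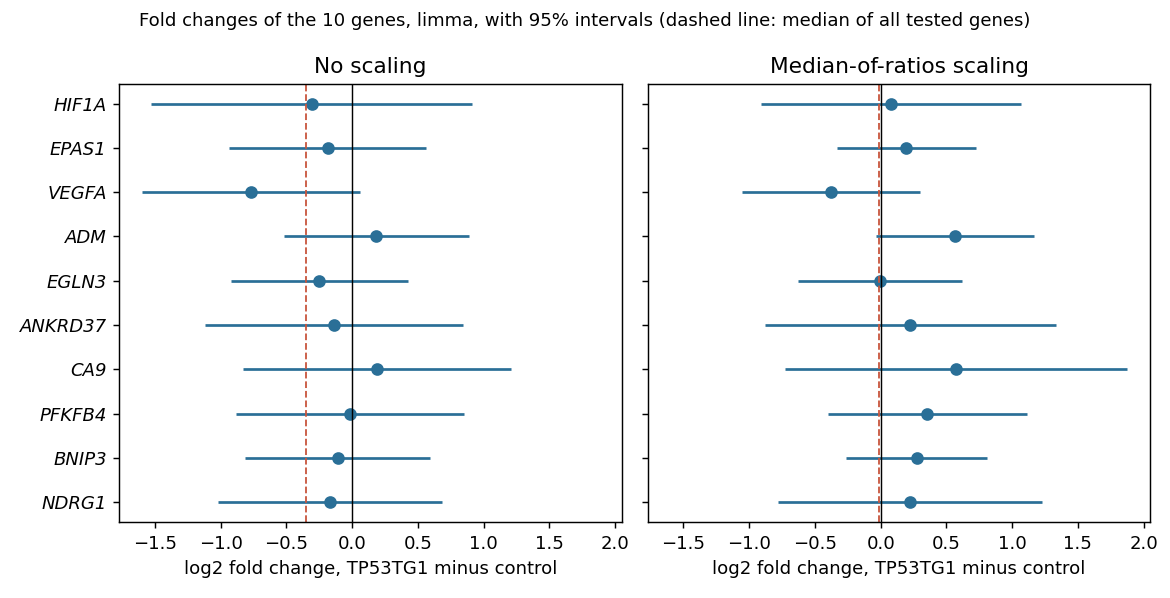
Log2 fold change of the 10 genes on the log2(FPKM + 1) scale, TP53TG1 minus control, with 95% intervals from limma, without scaling (left) and with median-of-ratios scaling (right); the dashed line is the median of all 12853 tested genes. All 20 intervals include 0, and VEGFA alone lies left of the dashed line in both panels.

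Compared between libraries of the same number, all 10 genes were lower with TP53TG1 in pair 1 on unscaled values, as were 93.8% of tested genes. In pair 2, 9 of 10 were higher unscaled, where 32.6% of tested genes were, and all 10 after scaling, where 48.2% were. Higher in all 3 pairs after scaling were 4 of 10, namely ADM, ANKRD37, CA9 and BNIP3, where 12.3% of tested genes were, and 0 were lower in all 3, where 14.7% of tested genes were. Without the libraries numbered 1 the log2 fold changes were 0.47 for ADM, 0.42 for PFKFB4, 0.39 for CA9, 0.20 for BNIP3, 0.19 for ANKRD37, 0.05 for NDRG1, -0.03 for HIF1A, -0.07 for EPAS1, -0.16 for EGLN3 and -0.56 for VEGFA. In that fit the median of all genes was -0.16, and 0 of the 10 passed (limma adjusted p from 0.671 to 0.973).

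Both libraries numbered 1 also carried other transcripts of these genes than the rest. After scaling, both lay above the other 4 for EGLN3, ANKRD37, CA9 and PFKFB4, as for 26.8% of tested genes, and below them for HIF1A. The transcripts named next were picked after their values were seen. EPAS1-201, the full-length mRNA of 5166 nt, was at 6.69 and 2.27 FPKM in control 1 and TP53TG1 1 and at 31.8 to 43.9 FPKM in the other 4. EPAS1-206, a retained-intron transcript of 3622 nt that ends 7 nt from the gene's 3′ end, held 77.0% and 87.9% of the gene there and 6.73% to 14.3% elsewhere.

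NDRG1 and HIF1A showed the same division. NDRG1-216, a retained-intron transcript of 2145 nt at the 3′ end, was at 178 and 248 FPKM in the libraries numbered 1, at 0 in controls 2 and 3 and at 15.1 and 4.59 FPKM in TP53TG1 2 and 3. HIF1A-211, a noncoding transcript of 559 nt at the 5′ end, held 4.88% and 2.85% of HIF1A in both number 1 libraries and 21.3% to 26.6% elsewhere. ADM-203, which ends 489 nt before the gene's end, was listed at 0 in both libraries numbered 1 and held 30.8% to 37.8% of ADM elsewhere. BNIP3-204, which ends 3195 nt before it, held 35.9% and 17.9% there and 58.2% to 61.4% elsewhere.

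Counted over the transcripts with a mean share of at least 5%, 17 of the 10 genes' transcripts ended within 100 nt of the gene's 3′ end. Of these, 8 had a higher share in both libraries numbered 1 than in the other 4, and 3 a lower one. Of 13 that ended further away 1 was higher and 7 were lower. Over all tested genes the figures were 25.5% higher and 17.4% lower of 16564 transcripts near the 3′ end, and 17.0% higher and 26.4% lower of 19636 further away. Transcripts of 1 gene share its total, so these counts are not independent. The part of this difference in the group comparison was not tested. Summed over protein-coding transcripts only, the log2 fold changes were -0.52 for EPAS1, -0.58 for NDRG1 and -0.65 for VEGFA, and 0 of 9 tested genes passed. With scaling these sums gave -0.20 for EPAS1 (SE 0.911), -0.19 for NDRG1 and -0.26 for VEGFA, and for EPAS1 and NDRG1 the sign is opposite to that of the scaled sum over all transcripts (0.20 and 0.22).

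Among the other genes of the pathway, from lists put together by known function, none passed in the fit without a block. Of 6 tested genes for HIF subunits and partners 0 passed, with a median of -0.41 (-0.06 after scaling). CITED2, which competes with HIF for its coactivators, averaged 43.8 ± 27.0 FPKM in controls and 27.7 ± 5.97 FPKM with TP53TG1 (SD, n = 3 each). The coactivator gene CREBBP averaged 11.9 ± 6.97 and 8.31 ± 5.78 FPKM (SD, n = 3 each). Their log2 fold changes were -0.50 and -0.60 unscaled, and -0.12 and -0.29 after scaling. Of 11 genes of oxygen sensing and HIF degradation 0 passed, with a median of -0.32 (0.03 after scaling). EGLN2, a hydroxylase gene, averaged 50.8 ± 4.48 and 41.3 ± 13.5 FPKM, far above EGLN3. The ubiquitin ligase genes SIAH1 and SIAH2, which act on the hydroxylases, averaged 36.0 ± 6.25 against 21.8 ± 10.1 FPKM and 16.9 ± 1.98 against 12.1 ± 3.08 FPKM (SD, n = 3 each). The log2 fold changes of SIAH1 and SIAH2 were -0.77 and -0.47 unscaled, and -0.39 and -0.10 after scaling.

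Of 18 tested glucose metabolism genes induced by HIF 0 passed, 17 lay above the median of all genes, and the list median was -0.05 (0.34 after scaling). Above the median of all genes, unscaled, lay 3 of 6 HIF subunits and partners and 7 of 11 oxygen sensing and degradation genes. So did 20 of 33 other hypoxia-induced genes, 3 of 6 VEGF family genes and 2 of 10 VEGFA splicing and stability genes. List counts were made only unscaled and with median-of-ratios scaling. HK2 and SLC2A3, a hexokinase and a glucose transporter gene, reached at most 0.31 and 0.15 FPKM and were not tested. ENO1, the glycolytic enolase gene, averaged 2121 ± 275 FPKM in controls and 1909 ± 69.1 FPKM with TP53TG1. The aldolase gene ALDOA averaged 1252 ± 327 and 1346 ± 46.1 FPKM, and its paralogue ALDOC 30.6 ± 6.76 and 41.6 ± 17.6 FPKM (SD, n = 3 each). PFKFB3, the relative of PFKFB4, was the gene of the glucose metabolism list below the median of all genes, at 48.4 ± 19.7 and 41.3 ± 26.6 FPKM. PFKFB3 was at 27.2 and 11.0 FPKM in both number 1 libraries and the others ran from 52.1 to 66.0 FPKM. PFKFB4 was at 23.4 and 12.3 FPKM in the libraries numbered 1, and the others ran from 10.2 to 19.5 FPKM. After scaling PFKFB4 was at 20.8 and 19.8 FPKM there, little above the 19.5 FPKM of TP53TG1 replicate 3.

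Of 33 tested genes in the list of other hypoxia-induced genes 0 passed, with a median of -0.29 (0.09 after scaling). DDIT4, an mTOR inhibitor gene, was at 326, 246 and 293 FPKM in controls 1 to 3 and at 174, 225 and 35.3 FPKM with TP53TG1. The groups did not overlap, as for 13.3% of tested genes in that direction, and they did overlap after scaling. DDIT4 had a log2 fold change of -1.35 (SE 0.601, limma adjusted p = 0.748), and it passed with the replicate block (adjusted p = 0.000425), as 1.49% of tested genes did, and not with block and scaling (0.889). In the unscaled block fit limma's prior degrees of freedom were infinite, so the variance of DDIT4 came from the trend over all genes and not from its own 3 pairs, whose ratios were 0.534, 0.915 and 0.121. MXI1, a MYC antagonist gene, averaged 8.39 ± 1.17 and 4.63 ± 2.15 FPKM (SD, n = 3 each). NDUFA4L2, a mitochondrial gene strongly induced by HIF-1, was at 244, 39.6 and 62.9 FPKM in controls and at 229, 93.5 and 65.1 FPKM with TP53TG1, with both libraries numbered 1 highest as for CA9.

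**Figure D4:**
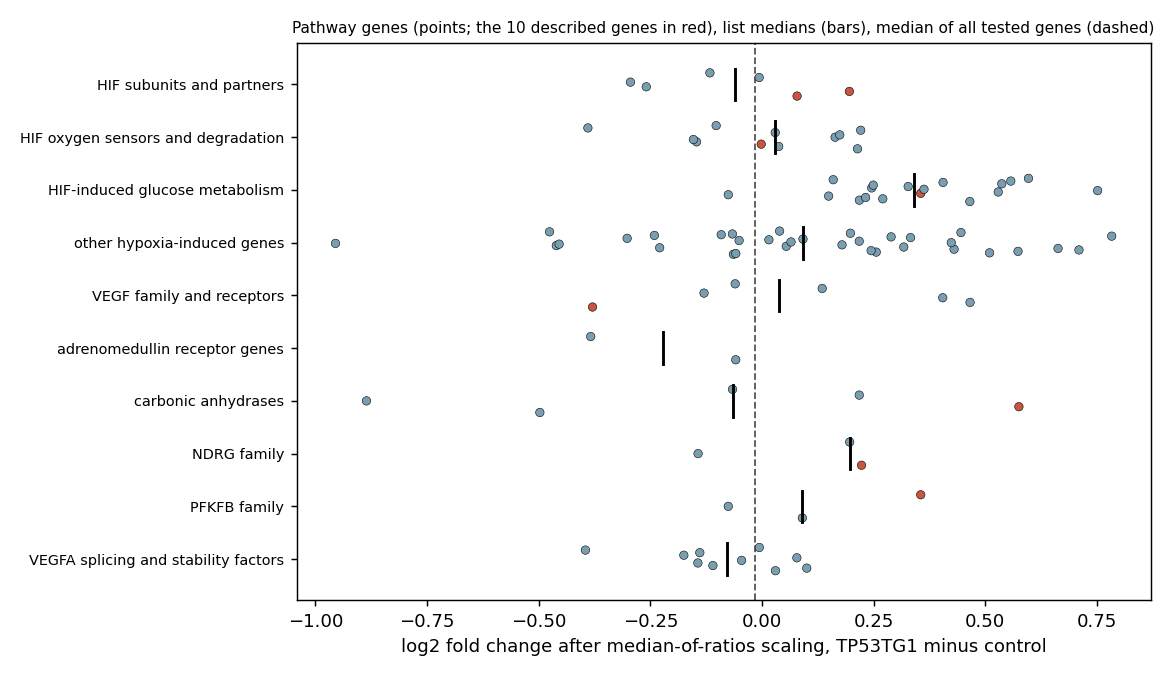
Log2 fold change of each tested gene of 10 pathway lists after median-of-ratios scaling, TP53TG1 minus control; each point is a gene, red points are among the 10 genes described, bars are list medians and the dashed line is the median of all tested genes at -0.02. Of the 18 genes of the glucose metabolism list 17 lie right of the dashed line, and 0 genes of any list passed the test.

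Relatives and partners of the 10 genes were measured too. Of 6 tested genes of the VEGF family and its receptors 0 passed. VEGFB averaged 48.1 ± 18.3 FPKM in controls and 49.4 ± 11.1 FPKM with TP53TG1, the VEGF coreceptor gene NRP1 50.7 ± 19.7 and 46.7 ± 26.3 FPKM, and the main receptor gene KDR 4.69 ± 1.49 and 3.93 ± 2.70 FPKM (SD, n = 3 each). FLT1 was listed at 0 in all 6 libraries. For ADM, the receptor gene CALCRL stayed at or under 0.20 FPKM. Its partner gene RAMP1 was one of 2 tested genes of that list, of which 0 passed. RAMP1 averaged 50.1 ± 23.8 and 34.4 ± 8.04 FPKM (SD, n = 3 each), with a log2 fold change of -0.445, and -0.06 after scaling.

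Of 5 tested carbonic anhydrase genes 0 passed. CA11 was at 7.48, 5.54 and 2.63 FPKM in controls and at 2.44, 1.69 and 0.80 FPKM with TP53TG1. Its groups did not overlap unscaled (13.3% of tested genes) and did overlap after scaling, with a log2 fold change of -1.20 (SE 0.432, limma adjusted p = 0.748). CA11 passed with the replicate block, in the same fit as DDIT4 (limma adjusted p = 0.028), and not with block and scaling (0.717). CA12, the other surface enzyme induced by hypoxia, was at 10.2 and 7.16 FPKM in both number 1 libraries and ran from 31.1 to 42.6 FPKM elsewhere, opposite to CA9. The NDRG and PFKFB families had 3 tested genes each and 0 passed, with NDRG3 at 9.43 ± 2.60 and 6.44 ± 1.80 FPKM (SD, n = 3 each). NDRG3 had a log2 fold change of -0.49, and -0.14 after scaling. Of 10 genes for VEGFA splicing and mRNA stability 0 passed, with a median of -0.46 (-0.08 after scaling). ZFP36L1, whose protein destabilises VEGFA mRNA, averaged 42.1 ± 8.56 and 27.1 ± 14.5 FPKM, and the splicing factor gene SRSF5 120.9 ± 11.8 and 91.0 ± 37.1 FPKM (SD, n = 3 each). Their log2 fold changes were -0.77 and -0.50 unscaled, and -0.40 and -0.11 after scaling.

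For 4 of the 10 genes the nearest patterns were looked up among 8806 tested genes that averaged 5 FPKM or more, as the root mean square difference of gene-centred log2(FPKM + 1) over the 6 libraries after scaling. Nearest to VEGFA were TBC1D13 (0.082) and CYP3A5 (0.117), where the median over genes was 0.505. Nearest to HIF1A were ZNF268 (0.034), SUZ12 (0.053) and PBK (0.053), against a median of 0.576. Nearest to EPAS1 were SUN1 (0.049), KDM2B (0.061) and HUS1 (0.069), against a median of 0.396. NDRG1 had no neighbour as near, with AC138969.1 (0.183), TNFAIP2 (0.195) and ABCA7 (0.197) against a median of 0.594. With 6 libraries, of which 2 stand apart, such nearness is a description only.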

How the data were processed

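RNA sequencing libraries of 3 control and 3 TP53TG1 transfections of Huh7 cells were analysed. Total RNA was extracted with TRIzol, treated with DNase I and made into libraries with a TruSeq RNA kit, per the labels' protocols. HISAT2 (an aligner), StringTie (a quantifier) and GRCh38.p10 (a genome build) appear in the submitters' processing notes, without their order. Versions, settings, strandedness and the annotation were not given in the sources used here. Each transcript's value in each library was deposited without a named unit and was taken as FPKM because the values are not whole and the library totals differ. StringTie also gives coverage per base, which cannot be told from FPKM by the values alone. The planned count test did not apply to FPKM and was not run.

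Transcript FPKM were summed per gene, with blank gene names filled by transcript from the other libraries. Coordinates, transcript types and lengths came from GENCODE 29 (GRCh38), which held 99.8% of the transcripts. Genes averaging 1 FPKM or more entered a limma 3.58.1 fit of log2(FPKM + 1) (R 4.3.3, trend on the mean), and p-values were adjusted by Benjamini-Hochberg with 0.05 as the threshold. This scale understates changes of low genes. VEGFA transcript shares were compared by exact two-sided permutation. Scripts used Python 3.11.15 and pandas 2.3.3, and the fit was tested on simulated data. Fragment counts were estimated from the smallest values of single-transcript genes, on the assumption that the unit is FPKM, and no interval rests on them.

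The labels number replicates 1 to 3 in both groups. Across genes, deviations of same-numbered libraries from their group means correlated by 0.71 for number 1, 0.562 for number 2 and 0.289 for number 3. Each exceeds the 0.1 required here, so libraries were paired by number, which the labels do not state. Control 3 with TP53TG1 2 reached 0.4 and control 2 with TP53TG1 3 reached 0.302, both above the 0.289 of number 3. The data thus set number 1 apart and do not settle pairs 2 and 3. Ratios by pair and fits with the replicate block rest on this pairing. Alternatives were another pseudocount, other filters, scaling, a replicate block, leaving out libraries, and sums over protein-coding transcripts. The genes, lists and tests were chosen with earlier results of these data known. Named genes are the 10 genes, TP53TG1, some of those that are among the 3 highest means or 3 smallest p of their list, and the nearest patterns; genes that overlap the 10, the cell type markers, and FLT1, HIF3A, CALCRL, HK2 and SLC2A3 are named in addition, after their values were seen. One of the nearest patterns is not reported here.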

Additional observations from a re-analysis of the deposited data

How the results depend on the processing

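No alternative took any of the 10 genes past the threshold. The count of all genes that passed, 1 of 12853, became 2 with a mean of at least 5 FPKM or with median-of-ratios scaling, 0 with no filter, 192 with the replicate block, 7 with replicate block and scaling, and 0 to 1 without 1 replicate (0 without control replicate 1). The sum over protein-coding transcripts, added after the data were seen, gave 0 with and without scaling. The replicate block left 2 residual degrees of freedom, had infinite prior ones when unscaled, and changed no call among the 10 genes. With median-of-ratios scaling, with or without the block, 6 negative log2 fold changes turned positive: HIF1A 0.08, EPAS1 0.20, ANKRD37 0.23, PFKFB4 0.36, BNIP3 0.27 and NDRG1 0.22. Rescaling to 1000000 gave EPAS1 0.07, ANKRD37 0.12, PFKFB4 0.24, BNIP3 0.15 and NDRG1 0.10. Without both libraries numbered 1, ANKRD37 was 0.19, PFKFB4 0.42, BNIP3 0.20 and NDRG1 0.05. Sums over protein-coding transcripts gave ANKRD37 0.0035, and with scaling HIF1A 0.10, ANKRD37 0.36, PFKFB4 0.34 and BNIP3 0.28. Leaving out 1 library gave ranges of -0.71 to 0.32 for HIF1A, -0.32 to 0.07 for EPAS1, -1.12 to -0.51 for VEGFA, -0.03 to 0.34 for ADM, -0.32 to -0.16 for EGLN3, -0.38 to 0.31 for ANKRD37, -0.14 to 0.65 for CA9, -0.34 to 0.22 for PFKFB4, -0.34 to 0.08 for BNIP3 and -0.50 to 0.16 for NDRG1. The share of VEGFA-205 differed by 1.0 percentage points, by -0.78 per fragment and by -1.78 to 4.15 without 1 library. VEGFA-206 differed by 4.85 points, by -0.51 without both libraries numbered 1 and by -2.61 to 8.87 without 1 library, and VEGFA-215 by -1.23 and by -4.46 to 3.16. VEGFA-214 differed by -4.55 points, by -0.97 per fragment and by -7.76 to -1.0 without 1 library. Apart from what the scaling and the omitted libraries do by construction, the cause of these changes was not tested. EGLN3, with a mean under 5 FPKM, rests on few fragments.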
